A study of Mus musculus with 47 samples.

Results

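The clock repressors examined here were the 3 Period genes (*Per1*, *Per2*, *Per3*), the cryptochromes *Cry1* and *Cry2*, *Ciart*, *Bhlhe40*, *Bhlhe41* and the casein kinase genes *Csnk1d* and *Csnk1e*. They were taken by symbol, through the Ensembl identifiers of GENCODE M21, from the 54281 genes of the deposited expression table. All 10 were among the 14580 genes that averaged 1 TPM or more over all libraries (TPM is a level per transcript, corrected for its length and for library size), so no member was lost to the filter on low values. The data are RNA sequencing libraries of microdissected cortex from 47 male C57BL/6J mice of about 3 months. Of these, 23 were fed control chow, and 24 were fed chow with 1200 ppm PLX5622, both for 10 days. PLX5622 inhibits CSF1R, the receptor on which microglia depend for survival, and it acts on every CSF1R-expressing cell of the body, so a difference between diets need not come from microglia alone. The mice lived in a light/dark cycle and were harvested at Zeitgeber times (ZT) 2, 6, 10, 14, 18 and 22, with lights on at ZT0 and off at ZT12. Each group held 4 mice, and 3 control libraries were analysed at ZT14.

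In the mammalian clock the transcription factors CLOCK and BMAL1 (encoded by *Arntl*) bind E-box sequences and switch on their own repressors. PER and CRY proteins accumulate, enter the nucleus and silence CLOCK and BMAL1, and the casein kinases encoded by *Csnk1d* and *Csnk1e* phosphorylate PER proteins and so set how long they last. CIART binds BMAL1 and represses the same activators, while BHLHE40 and BHLHE41 compete for E-boxes. In the brain outside the master clock these genes keep daily time too, and *Per1* and *Bhlhe40* are also induced by neuronal activity.

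The promoter windows of RefSeq (GRCm38.p6) show which clock elements lie beside these genes. Each window held 250 bases before and 50 bases after an annotated start. Windows were found for 7 of the 10 members (*Cry2*, *Ciart*, *Per3*, *Bhlhe41*, *Cry1*, *Per1* and *Csnk1e*, 11 windows in all) and not for *Per2*, *Bhlhe40* and *Csnk1d*. Both strands were searched for the E-box CACGTG, its variant CACGTT (the E'-box), the D-box TTATGTAA and the cAMP response element TGACGTCA, and none of the matches overlapped another. Matches are in capitals, because clock factors are known to act through elements of these kinds. The 250 bases before the start follow, 5′ to 3′, for 5 members that were called rhythmic over both diets and had a match.
Ciart, chr3:95882229-95882478, minus strand: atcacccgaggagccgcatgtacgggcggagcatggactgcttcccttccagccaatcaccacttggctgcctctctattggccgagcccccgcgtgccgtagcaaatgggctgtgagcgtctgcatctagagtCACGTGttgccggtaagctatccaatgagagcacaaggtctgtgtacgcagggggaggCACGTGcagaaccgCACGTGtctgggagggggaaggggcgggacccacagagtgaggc
Bhlhe41, chr6:145865421-145865670, minus strand: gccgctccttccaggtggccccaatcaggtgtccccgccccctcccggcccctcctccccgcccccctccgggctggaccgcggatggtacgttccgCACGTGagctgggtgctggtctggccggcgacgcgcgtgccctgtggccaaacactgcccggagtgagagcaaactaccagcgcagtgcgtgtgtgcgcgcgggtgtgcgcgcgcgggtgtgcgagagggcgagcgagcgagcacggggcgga
Per1, chr11:69098699-69098948, plus strand: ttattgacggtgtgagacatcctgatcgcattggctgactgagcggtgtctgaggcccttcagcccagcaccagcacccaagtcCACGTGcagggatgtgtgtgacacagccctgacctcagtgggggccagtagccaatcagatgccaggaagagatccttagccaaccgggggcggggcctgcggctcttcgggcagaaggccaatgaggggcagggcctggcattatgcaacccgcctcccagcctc
Cry1, chr10:85185055-85185304, minus strand: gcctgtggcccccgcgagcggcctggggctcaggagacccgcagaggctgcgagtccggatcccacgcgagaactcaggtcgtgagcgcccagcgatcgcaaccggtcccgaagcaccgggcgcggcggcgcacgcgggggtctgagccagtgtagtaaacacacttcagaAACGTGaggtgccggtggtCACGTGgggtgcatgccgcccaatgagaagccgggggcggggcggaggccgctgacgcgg
Per3, chr4:151044666-151044915, minus strand: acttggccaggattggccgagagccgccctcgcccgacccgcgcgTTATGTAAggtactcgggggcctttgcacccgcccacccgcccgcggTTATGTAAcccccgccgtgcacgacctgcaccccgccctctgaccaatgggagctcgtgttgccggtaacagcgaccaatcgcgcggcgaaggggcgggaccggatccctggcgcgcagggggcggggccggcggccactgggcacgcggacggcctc
*Ciart* held 3 E-boxes, and *Bhlhe41*, *Per1* and *Cry1* held 1 each. *Cry1* also held an E'-box, as did *Cry2*. *Per3* had no E-box in its window and held 2 D-boxes, the element bound by DBP, TEF, HLF and NFIL3. An E-box was present in 7.15% of the 32851 windows of all genes, an E'-box in 4.68%, a D-box in 0.938% and a cAMP response element in 1.79%. Neither the second *Per1* window nor the 4 *Csnk1e* windows held any of these elements, and no member window held the cAMP response element. A match describes letters and does not show that a factor was bound there.

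Libraries held 16597987 to 27626161 counted reads (medians 18314954 for control and 21476967.5 for PLX5622). Every member was covered by at least 75 reads in each library. *Ciart* was the shallowest, with 75 to 462 reads, and its values carry the largest counting error. No library stood apart, and the median correlation of a library with the others lay between 0.971 and 0.979. The tissue carried the markers of its label, with *Slc17a7* of cortical projection neurons at a mean of 554 TPM in control mice, and also striatal *Ppp1r1b* (239 TPM) and choroid plexus *Ttr* (516 TPM in control and 777 TPM in PLX5622 mice). Depletion was visible in all 14 microglial markers tested. *Csf1r*, the receptor that PLX5622 inhibits, fell from a mean of 51.6 to 4.19 TPM (log2 difference -3.54, limma adjusted p = 1.22e-20), and *P2ry12*, a purinergic receptor of microglia, from 42.1 to 3.32 TPM (-3.44, adjusted p = 3.55e-25).

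The kinases were the most abundant members and *Per2* and *Per3* the least abundant. In control mice the mean over all ZTs was 61.2 TPM for *Csnk1e*, 45.8 for *Csnk1d*, 45.6 for *Cry2*, 42.5 for *Bhlhe40*, 21.4 for *Per1*, 11 for *Ciart*, 10.4 for *Cry1*, 10.2 for *Bhlhe41*, 7.21 for *Per3* and 6.65 for *Per2*. The SD over the 23 control mice was 5.01 TPM for *Csnk1e*, 4.18 for *Csnk1d* and 5.79 for *Cry2*, and it was 5.67 for *Ciart*, 2.11 for *Cry1* and 2.15 for *Bhlhe41*. *Csnk1d*, *Cry2* and *Bhlhe40* were therefore within their spread of each other, as were *Ciart*, *Cry1* and *Bhlhe41*, and *Per3* and *Per2*. In PLX5622 mice the means were 55.8, 47.4, 45.8, 41.8, 21.6, 11.6, 10.9, 10.7, 7.23 and 7.26 TPM in the same order of genes, and the last pair changed places.

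**Figure D1:**
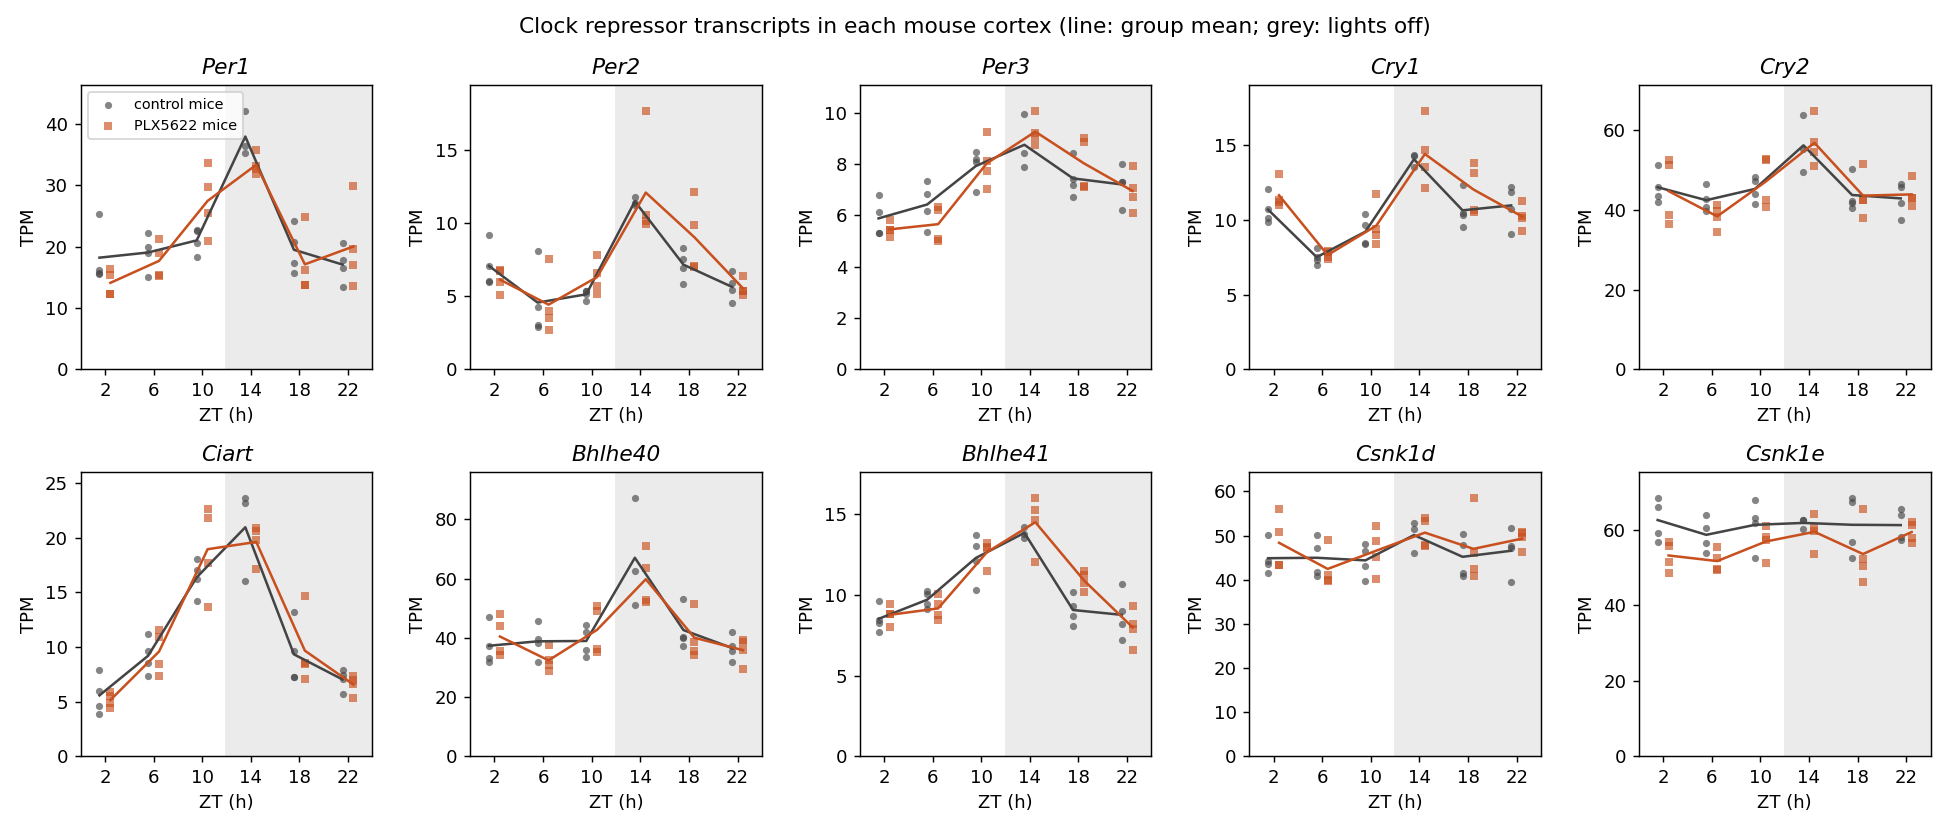
TPM (vertical axes, from 0) of each clock repressor in each mouse against ZT in hours (horizontal axes), with control mice as grey circles and PLX5622 mice as orange squares, lines through the group means and the dark phase shaded. Ciart spans 3.82 to 23.7 TPM in control mice over the day, whereas the Csnk1d and Csnk1e points form flat bands.

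Most of the repressors rose and fell over the day, and the kinases did not pass the test. With both diets in the fit, 7 of the 10 members were called for a 24-h component (limma F test, Benjamini-Hochberg adjusted p below 0.05 over all genes), against 5.26% of all genes. Adjusted p was 9.08e-15 for *Ciart*, 1.30e-09 for *Bhlhe41*, 7.21e-08 for *Per3*, 1.68e-04 for *Per1*, 0.00121 for *Cry1*, 0.00136 for *Per2* and 0.00619 for *Bhlhe40*. *Cry2* (0.0704), *Csnk1d* (0.50) and *Csnk1e* (0.668) were not called, though *Cry2* was called on the counts (adjusted p = 0.00631 with edgeR and 0.00264 with DESeq2). The 24-h amplitude, which is the distance of the fitted peak from the mean on the log2(TPM + 1) scale, had a median of 0.28 over the members and 0.073 over all genes. *Ciart* had the 8th largest amplitude of the 14580 genes, *Per1* the 80th, *Per2* the 88th, *Bhlhe41* the 198th and *Per3* the 331st. Highest means fell at ZT14, early in the dark phase, in both diets for 9 of the 10 members, and 28.3% of all genes shared that pattern. The exception was *Csnk1e*, highest at ZT2 in control mice.

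*Ciart* was the most strongly rhythmic member. In control mice it read 3.82, 4.56, 6.01 and 7.89 TPM at ZT2, 7.39, 8.57, 9.61 and 11.2 at ZT6 and 14.2, 16.3, 17.0 and 18.1 at ZT10. It then read 16, 23.2 and 23.7 TPM at ZT14, 7.23, 7.24, 9.62 and 13.2 at ZT18 and 5.72, 7.06, 7.48 and 7.86 at ZT22. All mice at ZT10 and ZT14 were thus above all control mice of the other times. In PLX5622 mice it went from 4.42, 4.86, 5.47 and 5.84 TPM at ZT2 to 17.1, 19.8, 20.6 and 20.9 at ZT14. The mean at ZT14 was 3.76 times that at ZT2 in control mice and 3.81 times in PLX5622 mice. Its fitted amplitude was 0.82 ± 0.085 (SE, n = 23) in control mice, with a peak at ZT12.5 ± 0.38 h, and 0.91 ± 0.082 (SE, n = 24) with a peak at ZT12.2 ± 0.34 h in PLX5622 mice.

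*Bhlhe41*, a basic helix-loop-helix repressor, followed *Ciart* closely in time. Control mice read 7.73, 8.24, 8.44 and 9.64 TPM at ZT2 and 13.5, 13.8 and 14.2 TPM at ZT14. PLX5622 mice read 6.59, 7.86, 8.19 and 9.31 TPM at ZT22, where their mean was lowest, and 12, 14.7, 15.3 and 16 at ZT14. The fitted peaks were at ZT11.9 ± 0.57 h and ZT12.9 ± 0.46 h, with amplitudes of 0.30 ± 0.047 and 0.38 ± 0.045. Its paralog *Bhlhe40* was more abundant and had a larger residual SD around the 24-h fit, 0.28 on the log2 scale against 0.16. That SD holds the departure of the group means from a cosine as well as the spread between mice. *Bhlhe40* read 51.2, 62.4 and 87.3 TPM in the control mice at ZT14 and 31.7, 35.5, 37.1 and 41.8 at ZT22. In PLX5622 mice it read 52.0, 52.6, 63.5 and 70.9 TPM at ZT14 and 28.7, 30.7, 32.5 and 37.6 at ZT6. The trough and peak mice did not overlap in either diet, although the control mice at ZT14 differed widely from each other.

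The Period genes differed from each other in shape. *Per1* stood at 35.2, 36.4 and 42.1 TPM in control mice at ZT14, and no control mouse of another time was above 25.3. At ZT22, the lowest control mean, it read 13.3, 16.6, 17.8 and 20.5 TPM. In PLX5622 mice *Per1* already read 20.9, 25.5, 29.7 and 33.5 TPM at ZT10, then 31.8, 32.6, 33.1 and 35.6 at ZT14, and 12.3, 12.3, 15.4 and 16.3 at ZT2. These ZT10 mice overlapped the ZT14 mice, and the diet difference of *Per1* at ZT10 was 0.35 on the log2 scale (95% interval -0.021 to 0.73, adjusted p = 0.698, limma). *Per2* was lowest at ZT6 in both diets. It went from 2.93, 3.03, 4.24 and 8.10 TPM at ZT6 to 11.3, 11.4 and 11.8 TPM at ZT14 in control mice, and from 2.67, 3.52, 4.01 and 7.52 TPM to 9.96, 10.1, 10.6 and 17.7 TPM in PLX5622 mice. The trough and peak mice of *Per2* stayed apart in both diets, although 1 mouse of each diet was well above its group at ZT6.

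*Per3* changed by the least of the 3 Period genes and with the smallest spread. At ZT2 it read 5.30, 5.31, 6.13 and 6.79 TPM in control mice and 5.14, 5.43, 5.43 and 5.82 TPM in PLX5622 mice. At ZT14 it read 7.87, 8.42 and 9.96 TPM in control mice and 8.72, 9.04, 9.21 and 10.1 TPM in PLX5622 mice. Its fitted peaks at ZT14.3 ± 0.73 h and ZT14.9 ± 0.48 h lay between those of *Per1* (ZT13.2 ± 1.0 h and ZT12.8 ± 0.75 h) and *Per2* (ZT16.6 ± 1.27 h and ZT15.7 ± 0.82 h). By exact matches to the letters searched, the *Per3* window printed above differs from that of *Per1* in holding D-boxes and no E-box. Near matches were not searched, and the part of these elements in the peak times was not tested.

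*Cry1*, the cryptochrome with the later fitted peak, had a sharp minimum at ZT6. Control mice read 7.01, 7.33, 7.53 and 8.15 TPM there and 13.5, 14.3 and 14.3 TPM at ZT14, and PLX5622 mice 7.36, 7.50, 7.82 and 7.91 TPM and then 12.2, 13.5, 14.7 and 17.3 TPM. The mean of *Cry1* fell after ZT14 in both diets. At ZT2 it was 10.7 ± 0.984 TPM (SD, n = 4) in control and 11.6 ± 0.939 TPM (SD, n = 4) in PLX5622 mice. These ZT2 means were above those at ZT6 and near the means over all ZTs, 10.4 TPM in control and 10.9 TPM in PLX5622 mice. The fitted peaks of *Cry1*, ZT17.7 ± 1.08 h and ZT17.2 ± 0.95 h, were the latest of the 7 called members. Its highest mean was nevertheless at ZT14 in both diets. A 24-h cosine described its profile poorly (12-h component below), so the fitted peak is not the time of its highest level. *Cry2*, the more abundant cryptochrome, changed by a smaller fold than *Cry1*. Its 24-h amplitude over both diets, 0.13, was still above that of 83.2% of all genes. Control mice read 39.8, 40.7, 42.9 and 46.6 TPM at ZT6 and 49.7, 55.2 and 63.8 TPM at ZT14. PLX5622 mice read 34.5, 38.2, 39.7 and 41.3 TPM at ZT6 and 51.0, 54.5, 57.1 and 64.9 TPM at ZT14. The mean at ZT14 was thus 1.32 and 1.48 times that at ZT6.

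The kinase genes had small amplitudes and peak times too uncertain to read. *Csnk1d* lay between 39.4 and 52.7 TPM in control mice and between 39.7 and 58.6 TPM in PLX5622 mice, and its amplitudes were 0.040 ± 0.045 and 0.071 ± 0.043. *Csnk1e* lay between 52.5 and 68.6 TPM and between 46.1 and 65.6 TPM, with amplitudes of 0.017 ± 0.039 and 0.057 ± 0.039. Mice of the highest and the lowest ZT overlapped for both kinases in both diets. For the other 8 members they did not overlap in either diet, whereas this held for 30.4% of all genes in control mice and 27.3% in PLX5622 mice. In none of the members, and in 0.0274% of all genes, was every mouse at ZT14 above every mouse at the other ZTs when both diets were pooled.

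**Figure D2:**
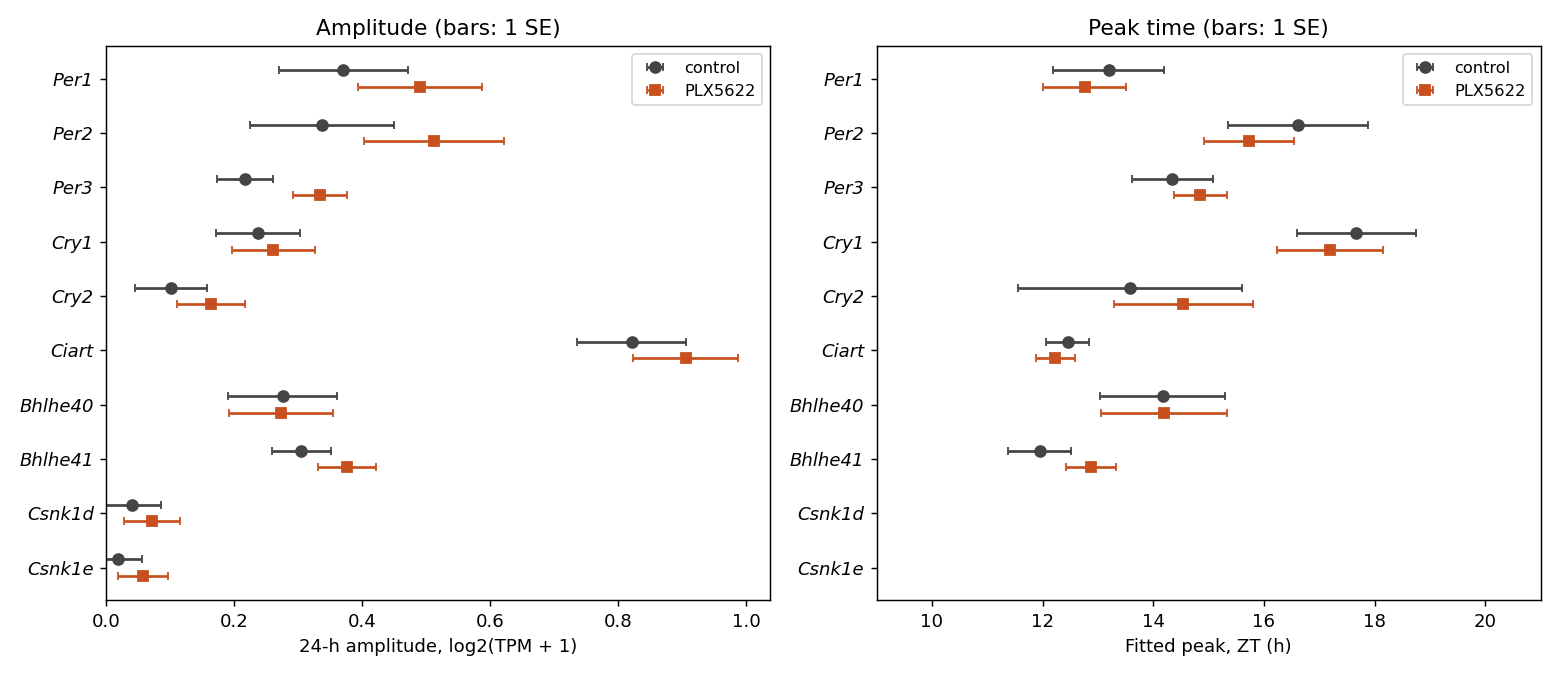
Fitted 24-h amplitude on the log2(TPM + 1) scale (left) and fitted peak in ZT hours (right) of each clock repressor in control (grey circles) and PLX5622 mice (orange squares), with bars of 1 SE. Fitted peaks run from about ZT12 for Ciart and Bhlhe41 to about ZT17 for Cry1, whose highest mean was at ZT14. The peak bars of the diets overlap for each gene, and no peak is drawn for Csnk1d and Csnk1e.

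The shape of the daily profile was tested with a 12-h component added to the 24-h terms, which is large where a profile is narrower or more lopsided than a cosine. It was called for 4 members, *Cry1* (limma adjusted p = 1.42e-05), *Per2* (0.00181), *Bhlhe40* (0.0139) and *Cry2* (0.0161), against 2.09% of all genes. *Per1* was not called (adjusted p = 0.102), but it was on the counts (adjusted p = 0.00445 with edgeR and 4.69e-04 with DESeq2) and in FPKM (0.00665 with limma). The 12-h amplitude was 0.24 for *Cry1* and 0.36 for *Per2*, close to their 24-h amplitudes over both diets of 0.25 and 0.43. It exceeded the 24-h amplitude in *Cry2* (0.15 against 0.13). The same held for *Csnk1d* (0.063 against 0.054) and *Csnk1e* (0.056 against 0.036), for which these fits called neither component. *Ciart*, with a 12-h amplitude of 0.13 against 0.86 over 24 h (adjusted p = 0.273), had the smallest 12-h component of the 10 members relative to the 24-h one.

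How far the rhythms rest on ZT14 was examined by leaving out its 7 libraries, a step chosen after the data were seen. *Ciart* (adjusted p = 1.10e-09), *Bhlhe41* (1.86e-05), *Per3* (2.33e-04) and *Cry1* (0.00474) were still called for time in limma. *Per2* (0.0759), *Per1* (0.108) and *Bhlhe40* (0.620) were not, and the count of called members went from 7 to 4, against 3.54% of all genes. The 24-h amplitude fell from 0.43 to 0.25 for *Per1*, from 0.43 to 0.26 for *Per2* and from 0.27 to 0.097 for *Bhlhe40*, while it was 0.28 and 0.26 for *Per3*. None of the members' 12-h components was called by limma without ZT14 (5 genes were, 0.0343% of all), and 3 members had an unadjusted p under 0.05, against 7.41% of all genes. The smallest adjusted p among the members were then those of *Cry1* (0.0511) and *Per2* (0.334). The tests on counts were not run on these libraries. Leaving out ZT14 removes 1 of 6 times as well as 7 mice, so the fit has fewer points from which to separate the terms.

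**Figure D3:**
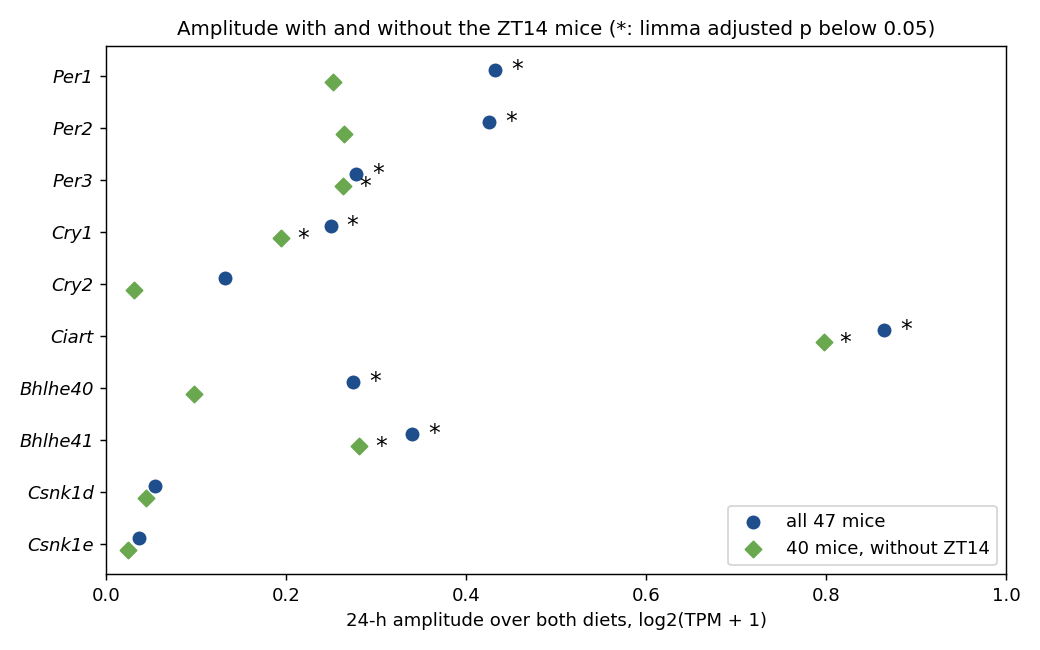
24-h amplitude over both diets on the log2(TPM + 1) scale (horizontal axis) for each clock repressor with all 47 mice (blue circles) and with the 40 mice of the other ZTs (green diamonds), where asterisks mark limma adjusted p below 0.05. Per3 moved least among the called genes, and Per1, Per2 and Bhlhe40 lost their asterisk.

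Immediate early genes, which neurons switch on within minutes of activity, were also high at ZT14. The mean log2(TPM + 1) of 10 such genes was 4.66 at ZT14 and 3.39 at ZT6, and ranged from 2.62 to 5.21 over control mice and from 2.79 to 5.08 over PLX5622 mice. For time, 4 of the 10 were called, *Arc* (amplitude 0.93), *Junb* (0.56), *Dusp1* (0.50) and *Nr4a1* (0.48), and none for diet. Across the 47 mice, after removal of each group's mean, the score was set against each of the 10 members (2-sided permutation tests of mice within groups, p not adjusted for the 10 relations). It correlated most with *Bhlhe40* (Pearson r = 0.72, Spearman rho = 0.72), *Per1* (0.69 and 0.68) and *Cry2* (0.66 and 0.68), each at a permutation p of 1e-05, the smallest that 100000 permutations can give. For *Csnk1d* the values were 0.52 (permutation p = 0.00146) and 0.56 (0.00037), and for *Ciart* 0.48 (permutation p = 0.00138) and 0.52 (0.00087). Without the 2 mice farthest from the median r was 0.75 for *Bhlhe40*, 0.73 for *Per1*, 0.68 for *Cry2*, 0.54 for *Csnk1d* and 0.48 for *Ciart*. Weaker values were those of *Csnk1e* (r = 0.39, permutation p = 0.0227, and rho = 0.34, 0.0343) and *Cry1* (r = 0.34, permutation p = 0.0458, and rho = 0.41, 0.0114). *Per2* had r = 0.17 (permutation p = 0.268) and rho = 0.35 (0.0267), so its relation depended on the measure. *Per3* had r = 0.060 and rho = 0.10, and *Bhlhe41* r = -0.041 and rho = 0.015. Of 9 lists of cell type markers, only that of endothelial cells held genes called for time (2 of 6). The mean score was still highest at ZT14 for cortical projection neurons (5.04, lowest 4.78), inhibitory neurons (6.56, lowest 6.34), endothelial cells, striatum and blood. It was highest at ZT22 for microglia and astrocytes, at ZT10 for oligodendrocytes and at ZT2 for choroid plexus. These means pool both diets, and ZT14 had 3 control and 4 PLX5622 mice. For microglia, whose markers differed strongly with diet, they are therefore not a daily profile. The part of tissue make-up in the ZT14 values was not tested. The points share libraries, so anything that scales a whole library enters both measures, and the part of the immediate early genes in the ZT14 values was not tested. Correlations of the score with all other genes were not computed, so these values are not shown to be particular to the members.

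Within a single diet fewer members passed. JTK_CYCLE, a rank test of each gene against a 24-h wave, called none of the members in control mice (11 genes, 0.0754% of all) and 3 in PLX5622 mice (0.61% of all), namely *Per3* (adjusted p = 0.00385), *Ciart* (0.00621) and *Bhlhe41* (0.00795). At an unadjusted p under 0.05 JTK_CYCLE had 6 members in control and 8 in PLX5622 mice, against 8.53% and 11.1% of all genes. The limma F test of the cosine and sine called *Ciart* (5.22e-05) and *Bhlhe41* (0.0149) in control mice, against 0.247% of all genes. In PLX5622 mice it called *Ciart* (4.30e-07), *Bhlhe41* (7.76e-05), *Per3* (2.23e-04), *Per2* (0.0325) and *Per1* (0.0331), against 0.926%. On the counts edgeR called 5 members in control and 7 in PLX5622 mice, against 2.04% and 3.21% of all genes. DESeq2 called 7 in each diet, against 4.88% and 5.77%, and on simulated data it made more false calls within control mice than its threshold allows. These counts do not compare the diets, which the next test does.

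No difference in rhythm between diets was detected for any member. The limma F test of the interactions of diet with both time terms called 0 of the 10 members and 0% of all genes. No member had an unadjusted p under 0.05, the smallest being 0.139 for *Per3*, whereas 669 genes (4.59% of all) had one, and edgeR and DESeq2 also called 0 genes. The fitted amplitude was larger in PLX5622 mice for 9 of the 10 members, the exception being *Bhlhe40* (0.28 and 0.27). The 9 include *Csnk1d* and *Csnk1e*, neither of which was called for time. The share of all genes with a larger amplitude in PLX5622 mice was not computed, so the count is not shown to be particular to the members. For each member the 95% interval of the amplitude difference included 0. That of *Per3* came nearest to leaving it out, from -0.0049 to 0.24 around a difference of 0.12, while that of *Ciart* ran from -0.15 to 0.32 and that of *Per2* from -0.14 to 0.49. The peak differed by -0.22 h in *Ciart* (95% interval -1.26 to 0.819 h), by 0.51 h in *Per3* (-1.26 to 2.27 h) and by 0.93 h in *Bhlhe41* (-0.543 to 2.40 h). For *Per2* and *Cry1* the intervals were wider, from -3.92 to 2.15 h and from -3.37 to 2.42 h.

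The level over the day differed with diet in 1 member. *Csnk1e* fell from a mean of 61.2 ± 5.01 TPM (SD, n = 23) to 55.8 ± 5.26 TPM (SD, n = 24), a log2 difference of -0.13 (SE 0.039, 95% interval -0.21 to -0.056, limma adjusted p = 0.0380), against 3.45% of all genes called in either direction. The median of control mice was 61.9 TPM, and that of PLX5622 mice was 56.2 TPM. The diets overlapped widely, with control mice from 52.5 to 68.6 TPM and PLX5622 mice from 46.1 to 65.6 TPM. The mean was lower in PLX5622 mice at each of the 6 ZTs, from -0.23 at ZT2 to -0.042 at ZT22. On the deposited counts the difference was -0.13 with edgeR (adjusted p = 3.44e-04) and with DESeq2 (adjusted p = 4.24e-05). With 1 library left out the limma adjusted p passed 0.05 in 18 of 47 fits and reached 0.0636. These were the fits without control ZT2 replicates 3 and 4, ZT6 replicate 4, ZT10 replicates 1 and 2, ZT18 replicates 1 and 2 and ZT22 replicate 4, and without PLX5622 ZT2 replicates 1 and 2, ZT6 replicates 1, 2 and 4, ZT10 replicate 3, ZT14 replicate 2 and ZT18 replicates 1, 2 and 3. In bulk tissue, fewer cells of a type and less RNA per cell cannot be told apart. The microglial markers moved with diet in the same mice, with a mean log2(TPM + 1) of 4.99 to 5.54 in control and 1.01 to 3.02 in PLX5622 mice and 14 of 14 called lower, and their part in the *Csnk1e* difference was not tested.

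The other 9 members showed log2 differences between -0.031 and 0.073, none of them called. Their 95% intervals set the size of a change that could have gone unseen. For *Per3* the interval ran from -0.11 to 0.068, for *Csnk1d* from -0.044 to 0.13 and for *Bhlhe41* from -0.056 to 0.13. For *Per2* it ran from -0.15 to 0.30 and for *Per1* from -0.22 to 0.17. The median over the members was 0.0026 and that over all genes was 0.031.

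At single times 0 of the 60 pairs of a member and a ZT were called for diet in limma. The share of all genes called was 1.29% at ZT2, 1.01% at ZT6, 1.07% at ZT10, 0.905% at ZT14, 0.809% at ZT18 and 1.3% at ZT22. An unadjusted p under 0.05 was held by 9.57% of all genes at ZT2, 7.24% at ZT6, 7.53% at ZT10, 4.31% at ZT14, 5.48% at ZT18 and 7.76% at ZT22. It occurred in 3 of the 60 pairs, a share within that range, and edgeR and DESeq2 called 0 pairs. The 3 were *Csnk1e* at ZT2 (log2 difference -0.23, adjusted p = 0.383) and ZT18 (-0.20, adjusted p = 0.880) and *Bhlhe41* at ZT18 (0.24, adjusted p = 0.654). *Bhlhe41* at ZT18 read 8.09, 8.70, 9.30 and 10.1 TPM in control and 10.2, 10.7, 11.2 and 11.5 TPM in PLX5622 mice, so that the groups touched without overlapping. The tests at single times and over the day use the same mice and are not independent.

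**Figure D4:**
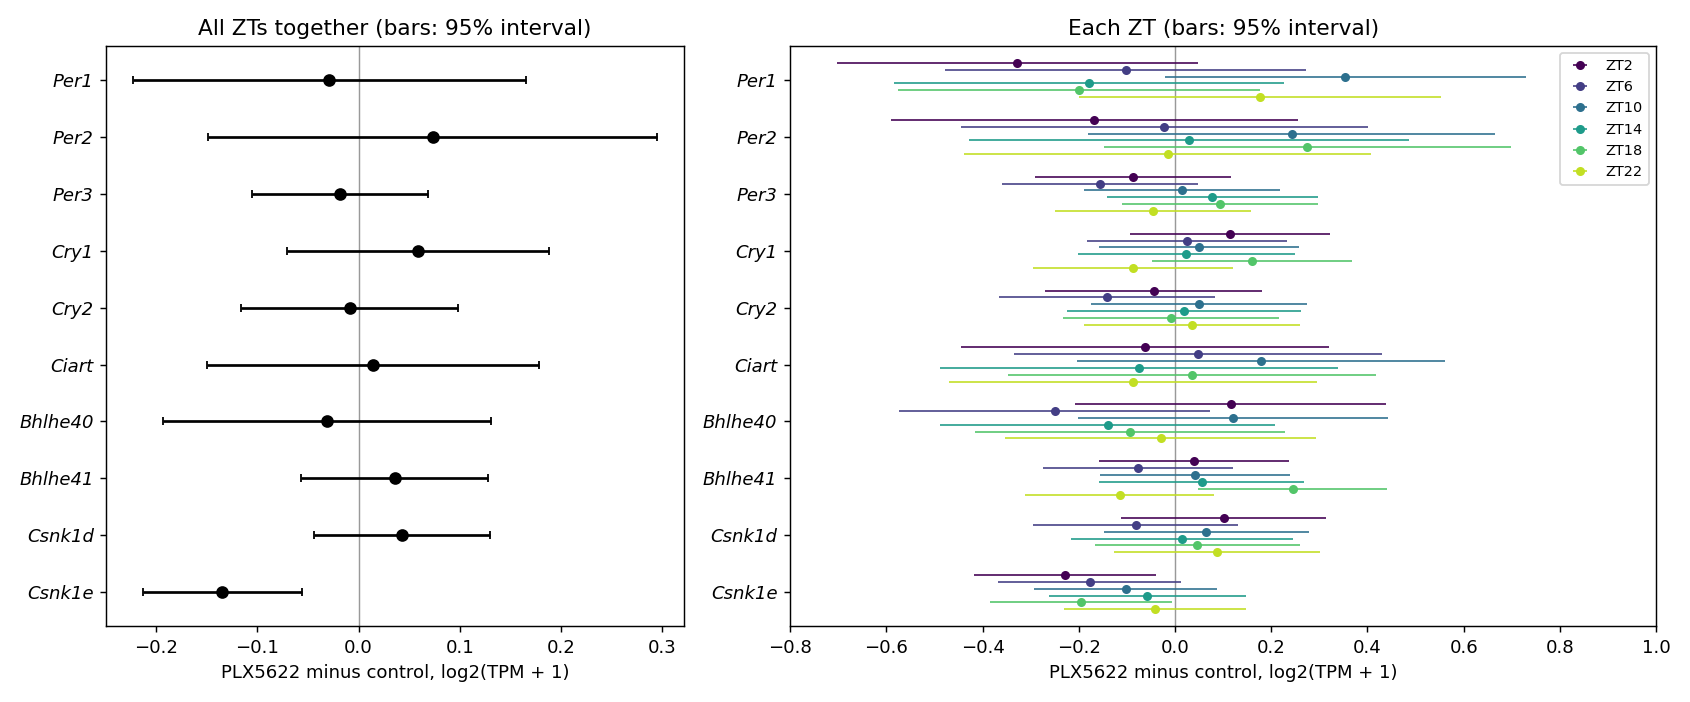
Difference PLX5622 minus control of each clock repressor on the log2(TPM + 1) scale (horizontal axes) with 95% intervals, over all ZTs (left) and at each ZT (right, colours from dark at ZT2 to light at ZT22). On the left only the interval of Csnk1e leaves out 0, and on the right 3 of the 60 intervals do so.

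Genes outside the repressors with the most similar profile over the 12 group means (Pearson r of log2(TPM + 1), a description over means that share libraries) differed from member to member. For *Ciart* they were *Dbp* (r = 0.981), a D-box activator, *Usp2* (0.968), a deubiquitinase, and *Nr1d2* (0.956), a nuclear receptor that represses *Arntl*. The closest to *Per2* were *Mex3c* (0.966), *Tmcc1* (0.960) and *Mxi1* (0.944), and the closest to *Cry1* were *Klhl29* (0.953), *Khdc4* (0.953) and *Eif1b* (0.943). Those near *Bhlhe40* included *Inafm2* (0.962) and *Cyth3* (0.951). The genes near *Ciart* had 24-h amplitudes from 0.29 to 0.77.

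Members that shared a profile over the group means did not always vary together between mice of a group (Pearson r, given as a description without a test). *Ciart* and *Bhlhe41* had r = 0.94 over the 12 means and 0.13 over the 47 mice after removal of group means, and *Per2* and *Cry1* had 0.93 and 0.10. *Cry2* and *Bhlhe40* had 0.94 and 0.87, and *Cry2* and *Csnk1d* 0.77 and 0.82. The exons of *Cry2*, *Bhlhe40*, *Bhlhe41*, *Csnk1d* and *Csnk1e* share bases with genes annotated on the opposite strand, all under 2 TPM on average, and the strand setting of the counting was not given in the sources used here. In *Bhlhe41* the shared part was 19.0% of the exon bases, and in the others at most 4.67%.

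Other genes of the clock were called for time as well, some with peaks near those of the repressors. Of 8 activators and nuclear receptors, 3 were called for time, *Nr1d1* (amplitude 0.48, fitted peak ZT10.1), *Nr1d2* (0.34, ZT12.8) and *Arntl* (0.40, ZT0.849), the last being far from the repressors. All 4 output factors that act on D-boxes were called, *Dbp* (0.77, ZT12.1), *Nfil3* (0.23, ZT22.1), *Tef* (0.21, ZT15.8) and *Hlf* (0.21, ZT16.1). Of 23 genes for the degradation and phosphorylation of PER and CRY, only *Usp2* was called for time (0.29, ZT11.9), and *Ppp1cb*, a phosphatase catalytic subunit, was called higher with PLX5622 (log2 difference 0.16, limma adjusted p = 0.0357). Among 14 partners of PER complexes *Sfpq*, an RNA-binding repressor, was called for time (0.17, ZT20.1). None of the genes in these lists was called for a difference in rhythm by limma.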

How the data were processed

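Total RNA from cortex was sequenced as paired reads, 1 library per mouse. The authors mapped reads to GRCm38.p6 with STAR, kept those on primary chromosomes and quantified TPM with Salmon on a Gencode annotation. The deposited TPM sum to the same total in each library, none is below 0, and no regression on sequencing metrics was applied to them here. A second deposited table holds whole-number counts per gene, although it is named for FPKM. The submitters' processing notes name STAR, featureCounts, edgeR, limma and mm10, and the strand setting was not given in the sources used here. Identifiers were matched to GENCODE M21 (99.7% of the TPM table and 99.8% of the count table).

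Tests used log2(TPM + 1) of genes averaging 1 TPM or more. Differences are on that scale, which understates those of low genes. Limma 3.58.1 in R 4.3.3 was fitted with diet and the 24-h cosine and sine of ZT, with their interactions for a difference in rhythm, with 12-h terms added for shape, and with the 12 group means for diet at each ZT. Amplitude and peak came from the fit with interactions, with SEs by the delta method. JTK_CYCLE was written anew with an exact null and peaks at the 6 sampling times. P-values were Benjamini-Hochberg adjusted over all 14580 genes, and adjusted p below 0.05 is called. Counts were tested with edgeR 4.0.16 (quasi-likelihood) and DESeq2 1.42.0 as alternatives. The tests for diet, time and rhythm were tested on simulated data with seeded changes, where DESeq2 within control mice made more false calls than its threshold allows. Python 3.11.15 (pandas 2.3.3, matplotlib 3.10.9) made the tables and plots.

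Results were recomputed with a pseudocount of 0.1, without the low-value filter and with one at 5 TPM, median-of-ratios scaling, FPKM computed from the counts, 3 principal components of the residuals, the mitochondrial share (6.46% to 10.0% of counts), ZT as a factor, a mean-variance trend in eBayes, the replicate number as a block, a threshold of 0.01 and each library left out in turn. JTK_CYCLE with peaks midway between sampling times and fits without ZT14 were chosen after seeing the data. The members and gene lists were chosen with earlier results of these data known. Named genes were all 10 members, the 3 genes most like each of *Per2*, *Cry1*, *Ciart* and *Bhlhe40* over the group means, and from each list of clock, turnover, complex and immediate early genes the 3 called for time with the largest amplitude and each gene called for diet, with *Csf1r* and *P2ry12* as the check of depletion. *Hlf*, *Nr4a1*, *Slc17a7*, *Ppp1r1b* and *Ttr* were named after their values were seen, and 1 gene that the rule names is not reported here.

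Libraries of a group differed by more than counting noise (smallest chi-square per degree of freedom 4.56 over 69 pairs). Mice were housed 4 to a cage, and the labels do not give which mice shared one, so cage and group cannot be told apart here.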

Additional observations from a re-analysis of the deposited data

Results flagged for a closer look

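Each member was examined in the 11 groups of 4 mice for a mouse far from the other 3 by Dixon's ratio, 110 sets in all, of which chance alone flags about 1 in 20. A mouse was flagged in 5 sets, where chance gives about 5.5. *Per1* was at 25.3 TPM in the fourth control mouse at ZT2, with the others at 15.5 to 16.2 TPM. *Per2* was at 17.7 TPM in the first PLX5622 mouse at ZT14 (others 9.96 to 10.6 TPM). *Cry1* was at 13 TPM in the third PLX5622 mouse at ZT2 (others 11 to 11.3 TPM). *Cry2* was at 50.4 TPM in the second control mouse at ZT18 (others 40.6 to 42.3 TPM), and *Csnk1d* was at 49.1 TPM in the third PLX5622 mouse at ZT6 (others 39.7 to 41.0 TPM). Each of the 5 mice was the highest of its group.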

How the results depend on the processing

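The count of members called within a diet depended most on the test. In control mice JTK_CYCLE called 0, and the count was 1 with peaks midway between sampling times, 2 with FPKM, the mitochondrial share, the replicate block or the limma cosine and sine, 3 with median-of-ratios scaling, 4 with 3 principal components, 5 with ZT as a factor or edgeR and 7 with DESeq2. In PLX5622 mice it was 3, and 5 with FPKM, the mitochondrial share, the replicate block or the limma cosine and sine, and 7 with 3 principal components, ZT as a factor, edgeR or DESeq2. Over these settings the share of all genes called ran from 0.0754% (JTK_CYCLE) to 4.88% (DESeq2) in control mice. In PLX5622 mice it ran from 0.61% to 5.77%, and 3 principal components gave 3.37% in control and 4.47% in PLX5622 mice. Leaving out single libraries gave member counts of 0 to 1 (*Ciart*, without control ZT2 replicate 4 or control ZT18 replicate 1 or 3) and 3 to 4 (*Per1* added without PLX5622 ZT18 replicate 2 or 3). Fits with covariates used the limma cosine and sine, whose counts without a covariate were also 2 and 5. The replicate block also took the count for time from 7 to 8, and it left the counts for diet, single times and a difference in rhythm at 1, 0 and 0. Same-numbered mice were weakly correlated (mean r of 0.021 to 0.088, the smallest -0.247), against a mean r of -0.017 for mice of different numbers. Over all genes the block raised the calls for time from 767 to 1043 and for the 12-h component from 304 to 752. The number was not taken as a pairing in the main fits, and what it stands for was not tested. The 12-h count was 4 (2.09% of all genes), and 5 with edgeR (4.79%), DESeq2 (6.92%) or the replicate block (5.16%). It was 6 with FPKM (4.25%), 8 with 3 principal components (24.1%), 2 at a threshold of 0.01 (0.35%) and 0 without ZT14 (0.0343%). For time it was 7 (5.26% of all genes), 4 without ZT14 (3.54%) and 7 to 8 without single libraries. *Cry2* was the gene added without control ZT2 replicate 4 or PLX5622 ZT2 replicate 3, ZT2 replicate 4 or ZT18 replicate 2. Limma also called *Cry2* for time with median-of-ratios scaling (adjusted p = 0.0199), FPKM (0.00252) and 3 principal components (0.00579). So did edgeR (adjusted p = 0.00631) and DESeq2 (0.00264) on the counts. Those settings called 9.16%, 14.3%, 18.5%, 14% and 16.2% of all genes for time, in that order. The diet count of 1 was 0 at a threshold of 0.01 and 0 to 1 without single libraries. The pairs called at single times went from 0 to 1 with median-of-ratios scaling and with 3 principal components. Signs reversed only in diet differences that were not called. That of *Ciart* was -0.0084 with median-of-ratios scaling, -0.011 with edgeR, -0.0092 with DESeq2 and -0.011 to 0.038 without 1 library, and that of *Bhlhe41* was -0.015 with FPKM, -0.037 with edgeR and -0.034 with DESeq2. Without 1 library that of *Per1* ran from -0.068 to 0.0023, of *Cry2* from -0.025 to 0.0086 and of *Bhlhe40* from -0.055 to 0.0080. The median diet difference over all genes was 0.031 in the main fit, 0.0089 with median-of-ratios scaling, 0.020 with FPKM and 0.0078 with edgeR. The cause of the sign changes was not tested. No test for a difference in rhythm called a member under any alternative that was run. Over all genes, edgeR and DESeq2 called 2019 and 2336 for time (limma 767), 1022 and 1155 for diet (503) and 692 and 999 for the 12-h component (304). Within control mice they called 295 and 705 (JTK_CYCLE 11), and within PLX5622 mice 464 and 834 (89). Over the alternatives at 0.05 that kept all libraries, the totals ran from 585 (no filter) to 2696 (3 principal components) for time, from 298 (filter at 5 TPM) to 1679 (3 principal components) for diet and from 170 (no filter) to 3514 (3 principal components) for the 12-h component. A difference in rhythm was called in 3 genes with 3 principal components, none of them a member, and in 0 otherwise. The eBayes trend was not run for JTK_CYCLE. Depth limits *Ciart* most (75 to 462 reads), and sampling every 4 h over 1 day with 3 or 4 mice a group limits the peak times.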
